A study of Mus musculus with 10 samples.

Results

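The forkhead box genes encode transcription factors that share the forkhead DNA-binding domain. In these data the family was taken as every protein-coding gene on chromosomes 1 to 19 whose GENCODE symbol is Fox, a letter from a to s and digits, which gave 41 of 20807 protein-coding genes. A total of 15 members of the Foxj, Foxk, Foxn, Foxo and Foxp subfamilies formed the ubiquitous group, and the other 26 formed the lineage group. The names of both groups follow the subfamily letter and not a measurement, and expression was not measured in the lists used here. All values come from F123 mouse embryonic stem cells (mESCs), an F1 line from Mus musculus castaneus and S129/SvJae parents. The cells carried no further genetic change in the labels and received no treatment. They grew in medium with LIF on irradiated CF1 embryonic fibroblasts and spent 1 passage on gelatin without feeders before harvest. H3K4me3 ChIP-seq and ATAC-seq were each done on 2 biological replicates, and each assay has 1 list of replicated peaks. No value below therefore has a spread between replicates, and the depth of the libraries is unknown.

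H3K4me3, trimethylation of lysine 4 on histone H3, marks the starts of active genes, and in embryonic stem cells also those of many silent developmental regulators that are rich in CpG and held by Polycomb. ATAC-seq reports DNA that the Tn5 transposase can reach. Forkhead factors fall into 2 broad kinds: some, such as FOXO, FOXP and FOXK proteins, act in many tissues, and others, such as FOXA and FOXC proteins, direct particular lineages in the embryo.

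The 6 stretches of promoter below show how far the DNA at these starts differs. Each is the 200 bases just upstream of the gene's annotated start, written along the gene's strand in mm10 coordinates, and none lies in an annotated exon. They belong to the members with the lowest and the highest CpG observed/expected ratio of each group (Foxn1 and Foxk2, Foxq1 and Foxc2) and to Foxd3 and Foxa2, regulators of the pluripotent state and of the endoderm. Capitals mark every CG dinucleotide.
Foxn1 upstream (chr11:78386559-78386758, minus strand): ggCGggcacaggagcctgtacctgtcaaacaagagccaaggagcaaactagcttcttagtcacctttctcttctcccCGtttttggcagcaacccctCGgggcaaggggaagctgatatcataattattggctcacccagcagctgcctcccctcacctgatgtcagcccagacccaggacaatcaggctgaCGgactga
Foxk2 upstream (chr11:121259790-121259989, plus strand): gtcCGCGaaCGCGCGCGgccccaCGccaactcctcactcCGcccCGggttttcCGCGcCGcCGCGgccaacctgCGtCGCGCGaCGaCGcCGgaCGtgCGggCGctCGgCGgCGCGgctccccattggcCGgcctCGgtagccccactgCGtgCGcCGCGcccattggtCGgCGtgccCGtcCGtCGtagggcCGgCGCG
Foxq1 upstream (chr13:31555934-31556133, plus strand): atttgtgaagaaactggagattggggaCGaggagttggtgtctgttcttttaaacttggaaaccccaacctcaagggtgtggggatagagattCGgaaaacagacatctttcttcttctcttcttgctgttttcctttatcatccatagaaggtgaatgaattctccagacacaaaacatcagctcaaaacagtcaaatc
Foxc2 upstream (chr8:121115971-121116170, plus strand): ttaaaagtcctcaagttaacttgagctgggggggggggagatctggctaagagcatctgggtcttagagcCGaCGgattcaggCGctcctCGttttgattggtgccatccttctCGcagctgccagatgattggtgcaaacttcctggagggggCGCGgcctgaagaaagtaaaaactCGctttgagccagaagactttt
Foxd3 upstream (chr4:99656099-99656298, plus strand): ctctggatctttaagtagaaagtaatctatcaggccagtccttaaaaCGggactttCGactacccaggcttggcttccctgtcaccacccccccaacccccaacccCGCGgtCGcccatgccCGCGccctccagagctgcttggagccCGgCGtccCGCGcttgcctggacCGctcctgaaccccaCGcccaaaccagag
Foxa2 upstream (chr2:148046970-148047169, minus strand): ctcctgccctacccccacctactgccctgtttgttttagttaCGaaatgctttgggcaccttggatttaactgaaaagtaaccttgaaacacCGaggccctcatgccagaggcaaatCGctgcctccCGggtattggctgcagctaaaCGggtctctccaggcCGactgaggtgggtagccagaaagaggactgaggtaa

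The stretch of Foxk2 held 42 CG dinucleotides, that of Foxd3 13, Foxc2 8, Foxa2 6, Foxn1 4 and Foxq1 2. The search read the letters CG, which are the same on both strands. Over the same stretch of 20804 protein-coding genes the median was 7 and 90.6% held at least 1. The 15 ubiquitous members had a median of 22 (1 to 42) and the 26 lineage members a median of 8.5 (2 to 35). The ratio that chose these genes was taken over 1 kb centred on the start, so a gene such as Foxc2, with a ratio of 0.99 over that kilobase, can carry fewer CGs in the stretch just upstream.

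Nearly the whole family was marked. An H3K4me3 peak touched the window of 2 kb either side of the start in 40 of 41 members, against 67.7% of all protein-coding genes. These were 15 of 15 ubiquitous and 25 of 26 lineage members. An ATAC-seq peak lay in the window of 38 members, 13 of 15 ubiquitous and 25 of 26 lineage, against 75.9% of all genes. Both kinds of peak were found at 38 members, against 67.2% of all genes. The differences between the groups and from the background were not tested, since genes of a family are not replicates and each list stands for both replicates.

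The exceptions were 3 genes. Foxi1, a regulator of inner ear and of acid-secreting kidney cells, was the only member with neither peak (chr11:34208089, minus strand). Its nearest H3K4me3 peak lay 15005 bp away and its nearest ATAC-seq peak 4948 bp away. Foxn1, the nude gene of thymic epithelium, had H3K4me3 without an ATAC-seq peak in the window (chr11:78386558, minus strand). That H3K4me3 peak was 240 bp wide and 226 bp from the start, with a fold enrichment of 3.65 over the peak caller's background and a −log10 q of 7.28. Foxj3, a factor of muscle and germ cells, also had H3K4me3 only (chr4:119537004, plus strand). Its peak had a fold enrichment of 38.2 but began 1800 bp downstream of the annotated start, and the ATAC-seq peak there began at 2011 bp, just outside the window. The annotation places 8 transcript starts of Foxj3 about 2657 bp downstream, inside that H3K4me3 peak, and only 1 at the gene start. The same peak also covers the start of Frg2f1 on the opposite strand, at 2525 bp.

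**Figure D1:**
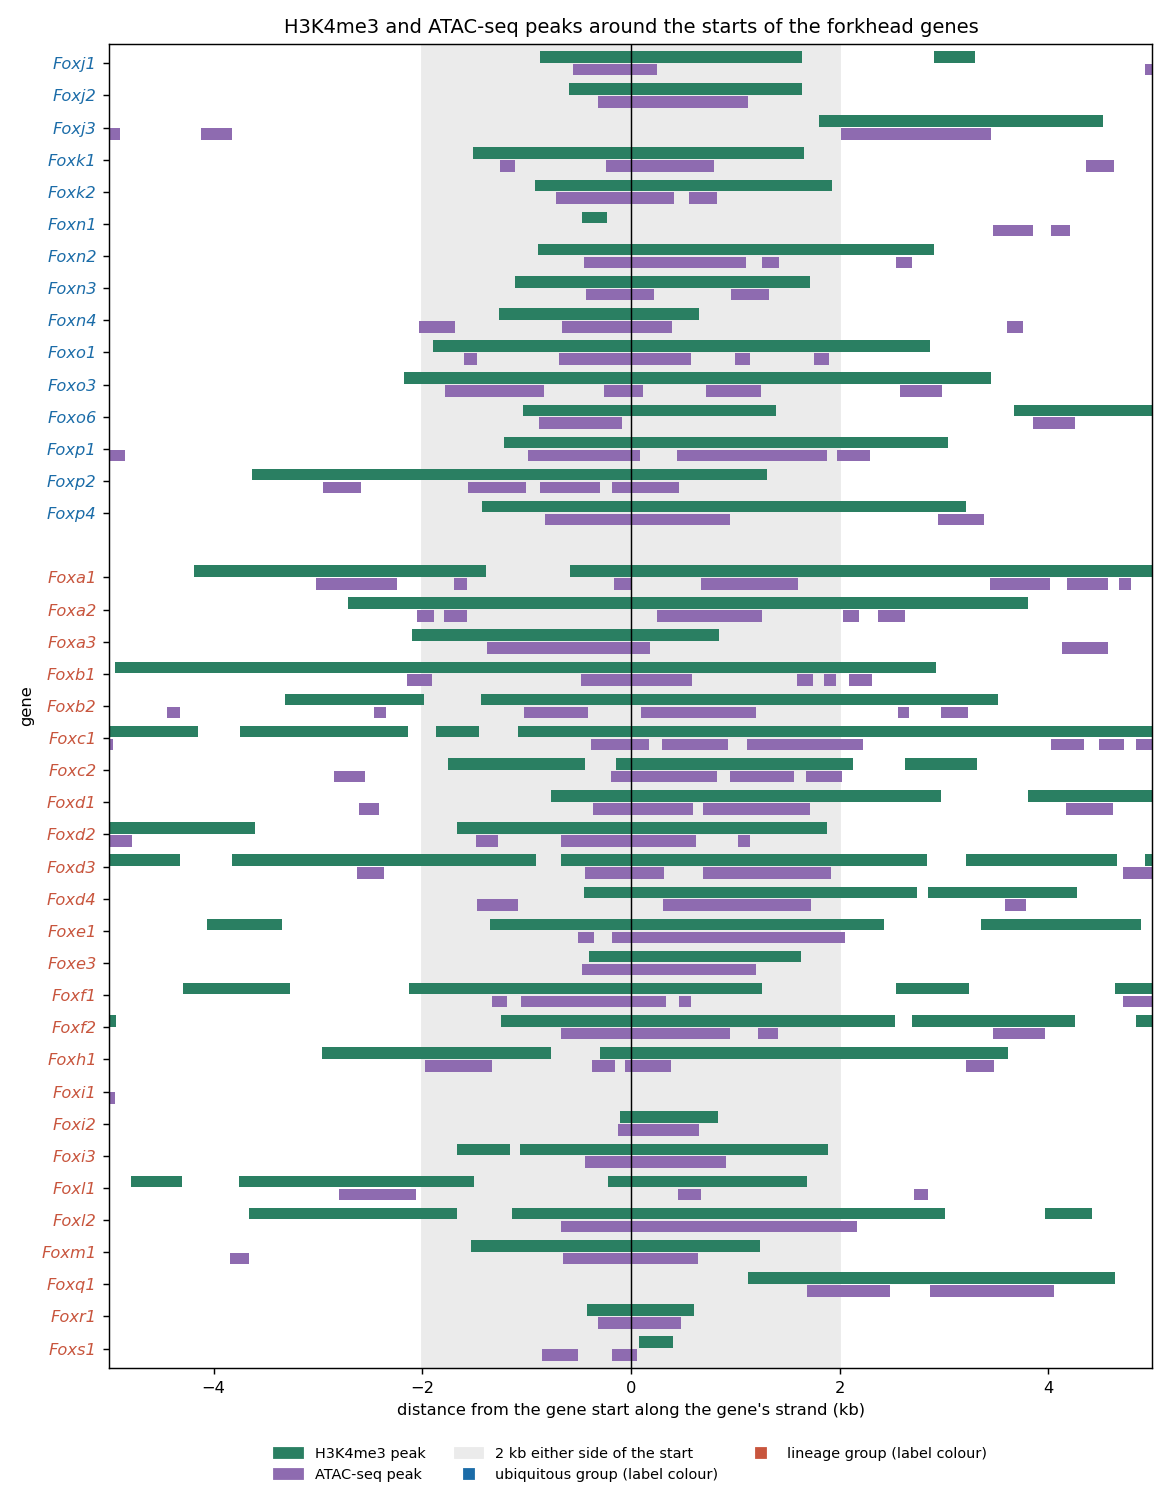
H3K4me3 (green) and ATAC-seq (purple) peaks up to 5 kb either side of the gene start, for 40 of the 41 members, drawn along the gene's strand on an axis of distance in kb, with the 2 kb window shaded. Ubiquitous members are at the top and lineage members below. Foxi1 has no bar in the window, and the H3K4me3 peaks of Foxj3 and Foxq1 begin more than 1 kb downstream of the start.

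The start base itself lay under an H3K4me3 peak in 36 members, against 62.4% of all protein-coding genes, and under an ATAC-seq peak in 31, against 63.6%. By group, the ATAC-seq peak covered the start in 12 of 15 ubiquitous (80%) and 19 of 26 lineage members (73.1%). The lineage group had the larger ATAC-seq share in the window, so the order of the groups depended on this choice. Foxj3, Foxn1, Foxq1 and Foxs1 had H3K4me3 beside the start and not over it. The distance was 1126 bp for Foxq1, a factor of stomach and hair, and 74 bp for Foxs1. ATAC-seq peaks lay beside the start and not over it in 7 members, among them Foxo6 (86 bp), Foxb2 (99 bp), Foxa2 (251 bp), Foxd4 (306 bp), Foxl1 (448 bp) and Foxq1 (1686 bp). The windows of all members held 49 H3K4me3 peaks and 77 ATAC-seq peaks, and 73 of the 77 (94.8%) touched an H3K4me3 peak of the same window. That share of peaks was not read over all genes. Counted by gene, all 38 members with an ATAC-seq peak in the window also had H3K4me3 there. The same held for 13974 of the 15788 protein-coding genes with an ATAC-seq peak, so a high overlap is general. The median was 2 ATAC-seq peaks a window in each group, and 1 over all genes with a peak.

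By their medians, ubiquitous members had the stronger H3K4me3 and lineage members the longer, most clearly where nearby peaks were joined. The strength used here is the fold enrichment of the strongest peak in the window, as the authors' list gives it. Its median was 33.3 over the 15 ubiquitous members (3.65 to 48.9) and 20.9 over the 25 marked lineage members (2.85 to 50.3), a ratio of 1.60. Over all 14079 marked protein-coding genes the median was 30.9. A fold below that median was found in 22 of 25 lineage members and in 5 of 15 ubiquitous members. The median −log10 q was 480.1 in the ubiquitous group, 200.8 in the lineage group and 459.3 over all marked genes.

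Only 3 lineage members exceeded the ubiquitous median, and each had the start of another protein-coding gene within its window. Foxa3, the liver and gut member of the Foxa trio, had the highest fold of the family at 50.3, in a peak that also covers the start of Sympk 839 bp upstream on the opposite strand. Foxh1, the SMAD partner of Nodal signalling, had 2 peaks. The peak over its own start had a fold enrichment of 24.6, and the stronger one, at 43.8, lay upstream over the start of Ppp1r16a, 1667 bp away. Foxm1, a regulator of mitotic genes, had 34.6 in a peak shared with Rhno1, whose start is 56 bp away. Signal of these neighbours cannot be told apart from that of the Fox gene where the peak is shared. Without these 3 the median of the lineage group was 20.3 over 22 marked members, with a highest value of 29.8. Members whose peak covers another coding start outside the window were kept. Among them were Foxj3 of the ubiquitous group (38.2) and Foxq1 of the lineage group (24.4).

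**Figure D2:**
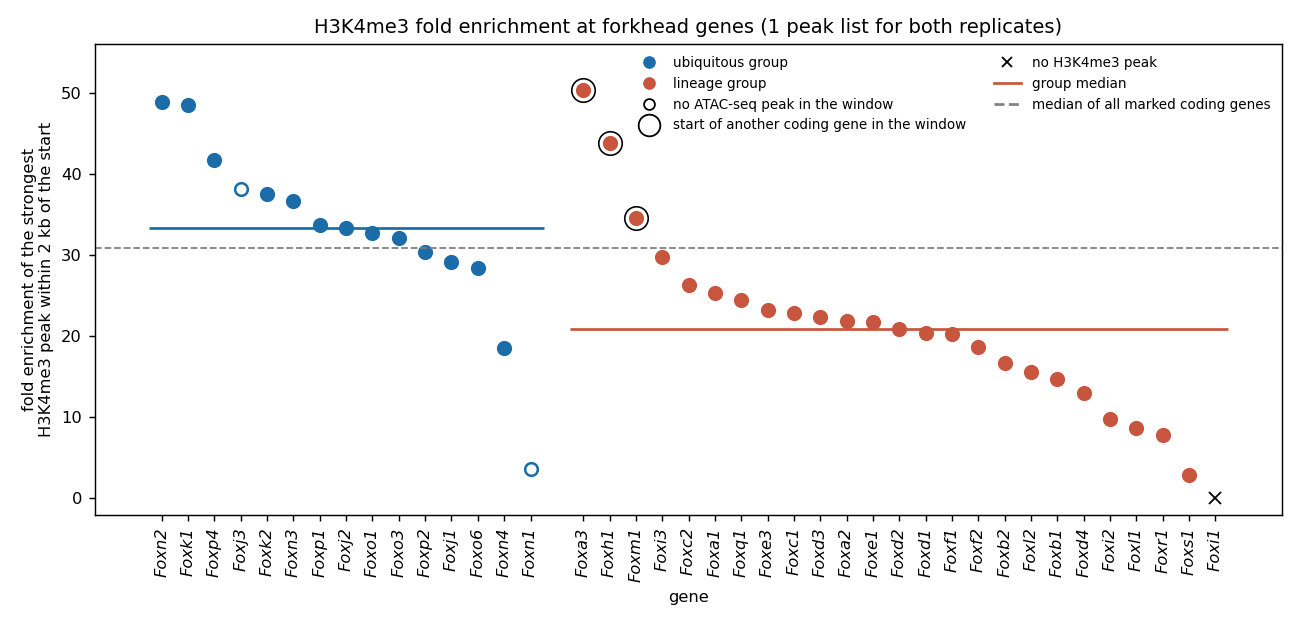
Fold enrichment of the strongest H3K4me3 peak within 2 kb of the start, for 40 of the 41 members in descending order within each group. Lines mark the median over all marked members of the ubiquitous group (33.3) and of the lineage group (20.9), and the dashed line the median of all marked protein-coding genes (30.9). The 3 lineage members ringed in black, Foxa3, Foxh1 and Foxm1, hold the start of another coding gene in the window, and Foxi1 has no peak.

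Among the ubiquitous members the Foxo genes, effectors of insulin signalling, had close values. Foxo1 (chr3:52268336) had a fold of 32.8, Foxo3 (chr10:42276755) 32.1 and the brain member Foxo6 28.4. H3K4me3 peaks covered 4001 bases, the whole window, at Foxo3 and 3900 at Foxo1. Foxo1 held 4 ATAC-seq peaks in the window, Foxo3 3 and Foxo6 1. The Foxp genes, which encode repressors that pair with each other, gave 33.7 for Foxp1, 30.4 for Foxp2, a gene of speech and brain circuits, and 41.7 for Foxp4. Their peaks covered 3218, 3304 and 3428 window bases. The Foxk genes, repressors of starvation responses, gave 48.4 for Foxk1 and 37.5 for Foxk2. These 8 genes all had ATAC-seq peaks in the window.

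The Foxj and Foxn subfamilies spread further. Foxn2 had a fold of 48.9, the highest of the ubiquitous group, and Foxn3, known as a checkpoint suppressor, 36.7. Foxj2 had 33.3 and Foxj1, the master gene of motile cilia, 29.1. The values of Foxn4, a gene of retinal and spinal interneuron precursors, and of Foxn1 were 18.5 and 3.65, the only ubiquitous members under the lineage median. Foxj1, Foxn1 and Foxn4 are known as tissue-restricted genes. With these 3 moved to the lineage group the medians were 35.2 and 20.6.

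The length of the mark ran the other way. Where H3K4me3 peaks no more than 1 kb apart were joined, the stretch at the start had a median length of 5073 bp in the lineage group (326 to 13912) and 2846 bp in the ubiquitous group (240 to 5628). It was 2316 bp over all marked genes. The stretch was above the 75th percentile of all marked genes in 19 of 25 lineage members and in 7 of 15 ubiquitous members. Without joining, the groups overlapped more. The strongest peak alone had a median width of 3512 bp in the lineage group and 2846 bp in the ubiquitous group. Its lower and upper quartiles were 2275 and 4154 bp in the lineage group, and 2472.5 and 4450.5 bp in the ubiquitous group. Other joining gaps were not tried. At least 2 separate H3K4me3 peaks lay in the window of 9 lineage members and of 0 ubiquitous members, against 12.3% of all marked genes.

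The longest stretch was that of Foxd3 (chr4:99656299, plus strand), a gene needed to keep stem cells pluripotent and for the neural crest. It ran over 13912 bp, and the 5 peaks within 6 kb of the start had folds of 14.1, 6.65, 22.3, 5.54 and 4.86 from upstream to downstream. The highest covered the start together with 2 ATAC-seq peaks. Foxb1, a gene of the hypothalamus, had a stretch of 12997 bp with a fold of 14.7, and H3K4me3 filled all 4001 bases of its window. Foxc1, a gene of eye and vessels, had 11695 bp and 22.8. The endoderm pioneer factors Foxa1 and Foxa2 had 9377 bp with 25.4 and 6523 bp with 21.8. The peak of Foxa2 (chr2:148046969, minus strand) also filled its 4001 window bases, while its ATAC-seq peaks lay 251 to 1255 bp downstream and in 2 places farther upstream. Foxl2, the ovary gene, had 8082 bp with 15.6.

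**Figure D3:**
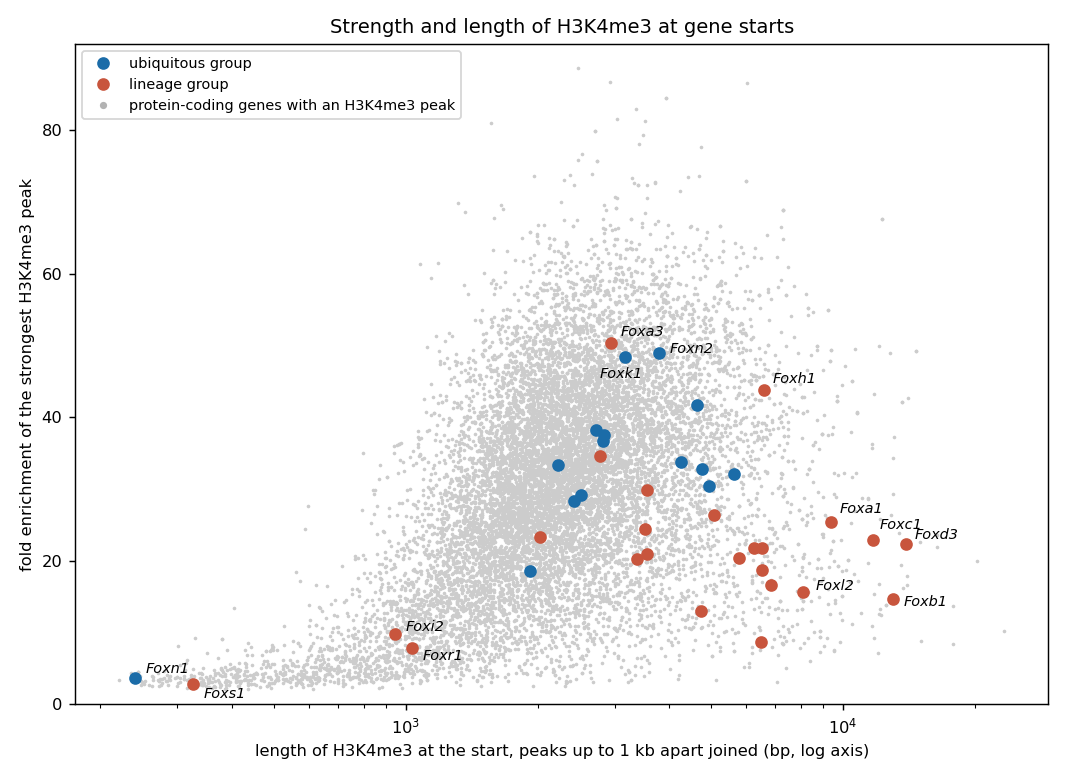
Fold enrichment of the strongest H3K4me3 peak against the length of H3K4me3 at the start, with peaks up to 1 kb apart joined (log axis, bp). Coloured points are 39 of the 40 marked members and grey points the protein-coding genes with an H3K4me3 peak. Most lineage members lie to the right and below the ubiquitous members, with Foxd3 at 13912 bp and a fold of 22.3.

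Most lineage genes are short, and H3K4me3 covered most of their length. The median gene length was 3534 bp in the lineage group and 57513 bp in the ubiquitous group. H3K4me3 peaks covered a median of 82.0% of the gene in marked lineage members and 4.26% in ubiquitous members. More than 50% of the gene was covered in 19 lineage and 0 ubiquitous members, and more than 90% in 9 lineage members. Over all marked protein-coding genes the median cover was 7.35% and the upper quartile 18.5%. Foxb2, Foxd3, Foxd4, the lens gene Foxe3 and Foxh1 were covered to 100%. For comparison, over marked protein-coding genes of up to 10 kb the median was 32.9%, and over those that are also CpG-rich 35.3%. For the 23 marked lineage members of up to 10 kb it was 82.4%.

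The remaining lineage members fell into a middle set and a low set. In the middle set, the kidney stroma gene Foxd1, Foxd2, the thyroid gene Foxe1, Foxf1 and Foxf2 of gut and lung mesenchyme, Foxc2 and Foxe3 had folds from 18.6 (Foxf2) to 26.3 (Foxc2). Their stretches ran from 2030 bp (Foxe3) to 6516 bp (Foxf2). Foxi3, a gene of teeth and ear, had 29.8 and Foxq1 24.4, although the peak of Foxq1 began 1126 bp downstream and also covers the start of A530084C06Rik at 3199 bp. Foxb2 and Foxd4 had 16.7 and 13.0. Folds below 10 were found at Foxi2 (9.74), Foxl1 (8.63), Foxr1 (7.84) and Foxs1 (2.85). Foxl1, of gut mesenchyme, differed from the other 3 in length, with 6479 bp against 944 bp for Foxi2, 1032 bp for Foxr1 and 326 bp for Foxs1. The peak of Foxs1 had a −log10 q of 4.28, the lowest among the strongest peaks of the members.

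CpG content was then compared with the marks. A start was called CpG-rich when the 1 kb around it had an observed/expected CpG ratio of at least 0.6 and at least 50% G and C. By this definition 29 members were CpG-rich, 13 of 15 ubiquitous and 16 of 26 lineage, against 45.7% of all protein-coding genes. All 29 had H3K4me3, and so had 99.3% of CpG-rich genes in general. Among the 12 CpG-poor members 11 had H3K4me3, against 41.0% of CpG-poor genes. In 8 of these 12, among them Foxa1, Foxa2, Foxa3, Foxd4, Foxh1, Foxi2 and Foxq1, a CpG-rich kilobase lay elsewhere in the window, and all 8 were marked. Of all CpG-poor genes with such a kilobase in the window 98.1% were marked, and of those without one 30.0%. The 4 members without one were Foxi1, Foxj3, Foxn1 and Foxs1, of which 3 were marked.

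The groups were also compared within the CpG-rich class. Among CpG-rich members the median fold was 33.3 in 13 ubiquitous members and 20.6 in 16 lineage members, and 35.3 over all marked CpG-rich genes. The median stretches of those members were 3173 bp and 6007 bp, against 2525 bp. In the CpG-poor class the 9 marked lineage members had a median of 21.8. The only 2 ubiquitous members there, Foxn1 and Foxj3, had 3.65 and 38.2, so no order of the groups can be read in that class. At CpG ratios of 0.93 to 1.05 the ubiquitous members ran from 28.4 (Foxo6) over 32.8 (Foxo1) and 33.7 (Foxp1) to 48.9 (Foxn2). The lineage members Foxc1 and Foxc2, with ratios of 0.94 and 0.99, had 22.8 and 26.3. Foxl1, with a ratio of 0.77 and a fold of 8.63, and Foxr1, with 0.63 and 7.84, lay lowest among the CpG-rich members.

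**Figure D4:**
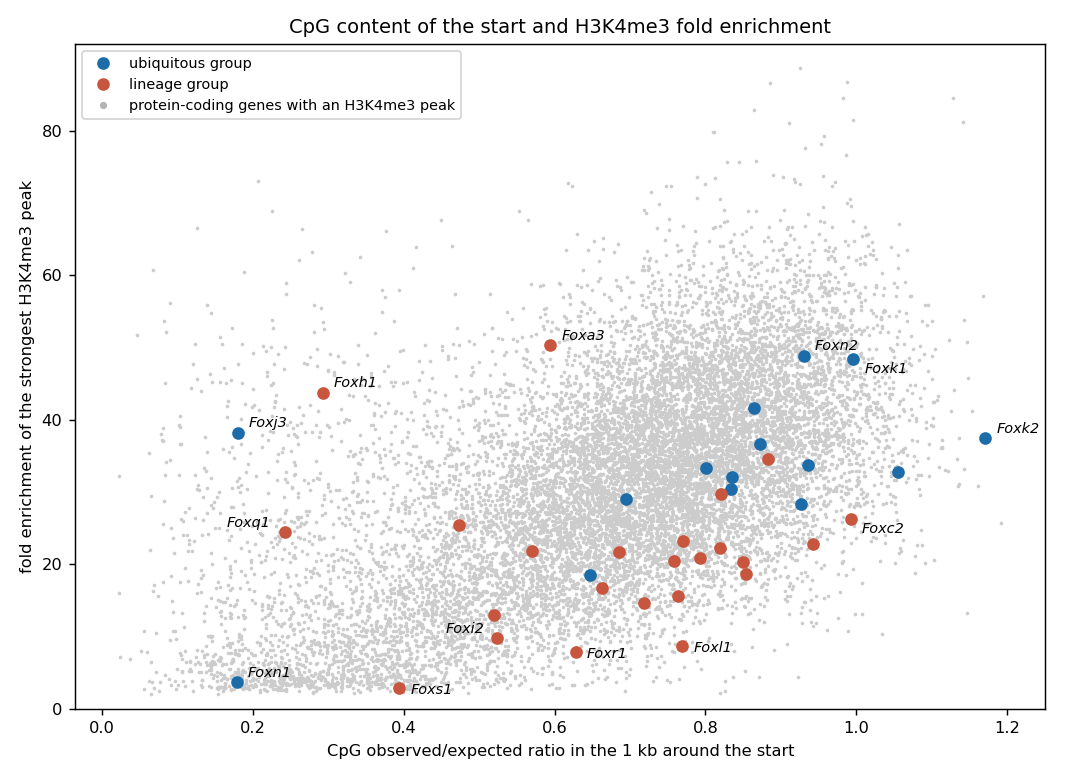
Fold enrichment of the strongest H3K4me3 peak against the CpG observed/expected ratio of the 1 kb around the start. Coloured points are 39 of the 40 marked members and grey points protein-coding genes with an H3K4me3 peak. Above a ratio of 0.6 most lineage members lie below the ubiquitous members of like CpG content, by little for Foxc2 (0.99, fold 26.3) beside Foxo6 (0.93, fold 28.4) and by more beside Foxk1 (1.00, fold 48.4).

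Neighbouring members were found at 3 places, with starts no more than 100 kb apart, and all 7 genes belonged to the lineage group. Foxd2 and Foxe3 lie 17140 bp apart on chromosome 4. From 2 kb before the first start to 2 kb after the last, 3 H3K4me3 peaks covered 34.0% of the stretch and 6 ATAC-seq peaks 17.8%. Foxf1, Foxc2 and Foxl1 lie in this order on chromosome 8, 31785 and 11769 bp apart. There 10 H3K4me3 peaks covered 33.2% and 15 ATAC-seq peaks 15.9%. The strongest peak of that stretch, with a fold of 46.1, lay at the start of Mthfsd, a gene named for its folate enzyme domain, 24006 bp from Foxf1, and no Fox gene of the stretch exceeded 26.3. Foxq1 and Foxf2 lie 69682 bp apart on chromosome 13, where 4 H3K4me3 peaks covered 16.1% and 8 ATAC-seq peaks 7.18%. Peaks away from annotated coding starts stood between Foxq1 and Foxf2, with folds of 5.22 and 10.8 at 57985 and 61911 bp from Foxq1. Over chromosomes 1 to 19, H3K4me3 peaks covered 1.92% and ATAC-seq peaks 2.60% of all bases. The 3 stretches were drawn around starts of marked genes, so a higher cover than these shares followed from their choice. Stretches around other neighbouring gene starts were not read.

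**Figure D5:**
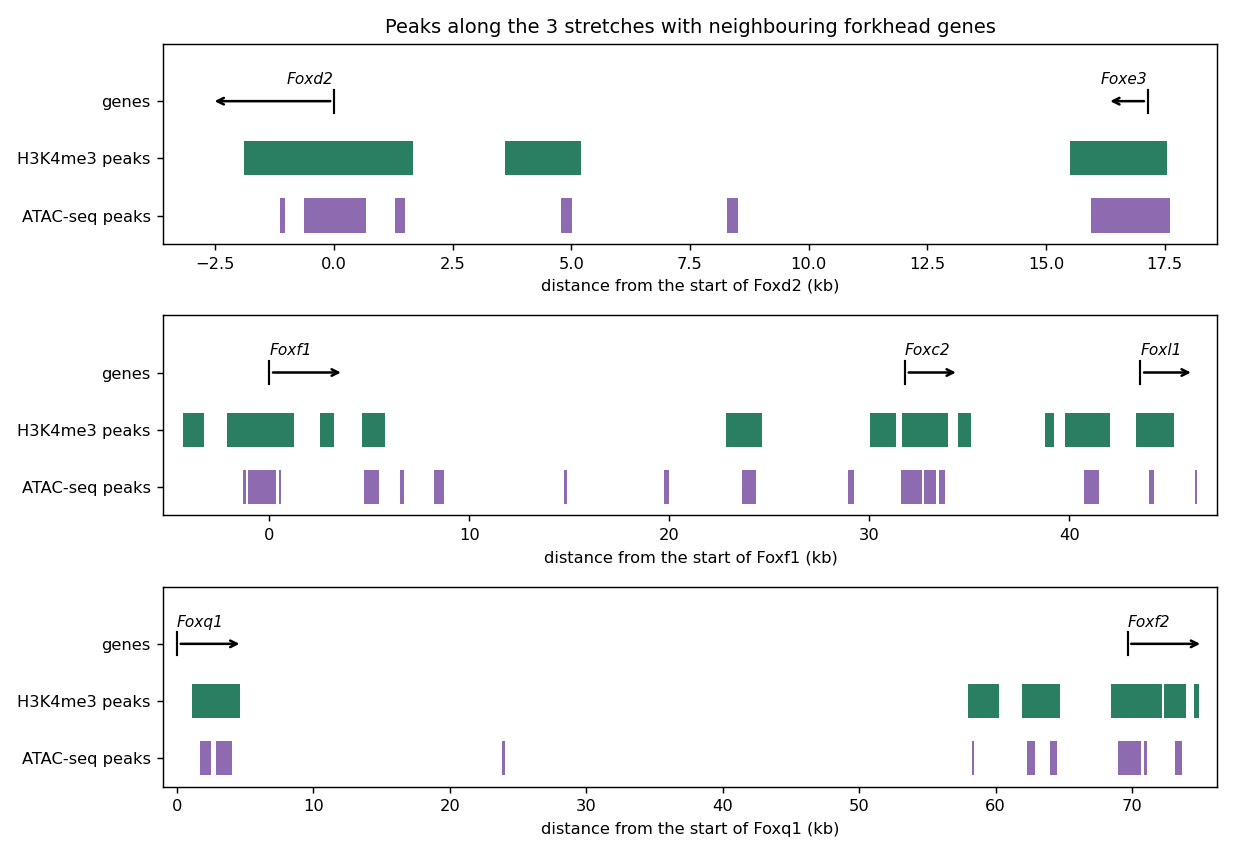
Members, H3K4me3 peaks and ATAC-seq peaks along the 3 stretches with neighbouring Fox genes, on axes of distance in kb from the start of Foxd2, Foxf1 and Foxq1. Arrows run from the gene start to its end. H3K4me3 peaks touch or flank each of the 7 genes, and Mthfsd, which is not drawn, starts at the H3K4me3 peak 24 kb from Foxf1.

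Long genes of the ubiquitous group had further starts inside. A total of 10 members, 9 of them ubiquitous and the other Foxm1, had annotated transcript starts more than 2 kb apart, 42 separate places in all. Apart from the gene starts themselves there were 32 further places. Within 2 kb, 8 of the 32 had H3K4me3, against 18.6% of the further starts of all protein-coding genes, and 13 an ATAC-seq peak, against 41.8%. The H3K4me3 peak counted for Foxm1 is the one over its gene start. The peak counted for Foxj3 covers the further place at 2657 bp and not the gene start, whose window it also touches. In Foxn3 an internal start 169785 bp into the gene had a fold of 47.7, above the 36.7 of the gene start. In Foxp1 an internal start at 493779 bp, shared by 6 transcripts, had 22.2 against 33.7 at the gene start. Foxp2 had H3K4me3 at its gene start and at none of its 5 other places. Foxj2 and Foxp4 each had an internal start with a weaker peak, of 9.72 and 7.61.

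ATAC-seq peaks farther out were counted as well. Between 2 and 50 kb from the start the members had a median of 11 peaks (2 to 22), against 10 for all protein-coding genes. Foxa3 and Foxk1 had the most, 22 each, and Foxp2 and Foxq1 the fewest, 2 each.

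Other families of developmental regulators were read in the same way. The Tbx family was taken as Tbx and digits together with Eomes, Tbr1 and Mga, and without the gene T. Its 15 genes, called Tbx genes here, had H3K4me3 at 13 starts, with a median fold of 14.8 and a median stretch of 5448 bp. All 9 Pax genes were marked, with 13.2 and 5353 bp. Of 39 Hox genes 37 were marked, with 11.9 and 4312 bp. At least 2 H3K4me3 peaks lay in the window of 46.2% of marked Tbx, 22.2% of marked Pax and 56.8% of marked Hox genes, against 36% of marked lineage Fox genes. The median fold of the lineage Fox genes, 20.9, stood above those of the 3 families and under that of the ubiquitous Fox genes. Their median stretch of 5073 bp lay between the Hox and the Pax values. H3K4me3 covered a median of 57.7% of the gene in marked Hox, 15.5% in Tbx and 9.61% in Pax genes, against 82.0% in marked lineage Fox genes. The median gene lengths were 3488, 17261, 55040 and 3534 bp. The differences were not tested.

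Genes that act with forkhead factors were read from fixed lists, whose counts stand against the 67.7% (H3K4me3) and 75.9% (ATAC-seq) of all protein-coding genes given above. Of 14 regulators of FOXO proteins 13 had both peaks, with a median fold of 39.9; Akt1, a kinase that phosphorylates FOXO proteins, had 59.1, while Skp2 had neither peak. Of 13 known FOXO targets 9 had H3K4me3 and 10 ATAC-seq peaks, shares near those of all genes. The 9 marked targets had a median fold of 33.0, from 3.90 to 49.2. Among the higher ones were Bcl2l11, a cell death gene, with 45.1, and the cell cycle genes Ccng2 and Cdkn1b with 49.2 and 36.7. The 4 without H3K4me3 were the cell death gene Fasl, which had an ATAC-seq peak, and Pck1, G6pc and Igfbp1, which had neither peak. All 12 genes of the Nodal and FOXH1 pathway had both peaks, with a median of 28.8, among them Nodal (40.0), the co-receptor gene Tdgf1 (26.4) and the targets Lefty1 (14.3) and Gsc (26.7). All 8 targets of FOXM1 in mitosis had both, with a median of 35.6 and 66.3 at Ccnb1. Of 11 endoderm targets of FOXA factors 6 had H3K4me3 and 5 an ATAC-seq peak. The median fold of the marked ones was 12.9 (6.21 to 32.2), while Alb, Afp and Hnf4a had neither peak.

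The label of the cells was checked on markers in the same lists. Of 8 genes of pluripotent cells 7 had H3K4me3 and 8 an ATAC-seq peak, with folds from 14.9 (Nanog) to 42.9 (Sox2), and Esrrb lacked H3K4me3 at its annotated start. Of 8 fibroblast genes 5 had H3K4me3, from 3.39 (Dcn) to 20.4 (Col1a2), and 7 an ATAC-seq peak, while Col3a1, Postn and Lum had no H3K4me3. Of 6 genes of liver, blood and muscle 3 had H3K4me3, from 4.05 to 13.3, and 2 an ATAC-seq peak. The shares over all protein-coding genes were 67.7% and 75.9%. The fibroblast genes had low CpG ratios around the start, from 0.18 (Col3a1) to 0.43 (Thy1). Those of the liver, blood and muscle genes were low as well, from 0.11 to 0.32. Of all CpG-poor genes 41.0% had H3K4me3 and 55.6% an ATAC-seq peak, and the fibroblast counts lay above both shares. For liver, blood and muscle the 3 of 6 with H3K4me3 also lay above its share. Their 2 of 6 with an ATAC-seq peak lay below the other share. With lists this short, no excess of fibroblast signal can be read from these counts. The part of feeder cells in the peaks of the Fox genes was not tested. The whole lists held 33487 H3K4me3 peaks and 179109 ATAC-seq peaks, with median widths of 1135 and 261 bp.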

How the data were processed

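H3K4me3 ChIP-seq and ATAC-seq peaks of F123 cells were used, each from 2 replicates. Of the 10 samples of the series, the PLAC-seq and input samples were not analysed here. For H3K4me3 the authors ran the default ENCODE histone ChIP-seq pipeline. The deposited columns used here were the peak position, its fold enrichment (a ratio over the peak caller's background) and −log10 of the q-value. The aligner and the build of that list are not given in the sources used here, and no peak ended past an mm10 chromosome. For ATAC-seq, mapping to mm10 used bowtie 1.1.2 and peak calling MACS2 2.1.1.20160309. The cutoff of these calls was set on the p-value, which is not corrected for the number of places tested. Duplicates were removed with samtools. The authors shifted read ends for Tn5 and used bedtools 2.27.1 to keep pooled peaks found in both replicates. The deposited list holds positions only, and neither list holds read counts, so depth is unknown and no test or interval was computed.

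Gene starts were the 5′ ends of gene records in GENCODE M21 (mm10), and a peak counted when it shared at least 1 bp with the window. A peak found in the window may belong to a neighbouring gene. CpG values and the printed sequences were read from the RefSeq GRCm38.p6 genome, whose chromosome 1 has the mm10 length (195471971 bp). Counts of peaks per window equalled those of bedtools 2.31.1 for all 20807 genes in both lists, and the overlap code was tested on simulated data. Other tools were Python 3.11.15, numpy 2.4.6 and matplotlib 3.10.9. The rule named all members, but 1 of them and 1 gene of a list are counted here and not reported singly. Fuller values went to members lacking a peak, the 5 of each group with most window bases in H3K4me3, members in gene clusters, and Foxd3, Foxh1, Foxm1, Foxo1, Foxo3, Foxp1, Foxk1 and Foxk2. The members and the gene lists were chosen with earlier results of these data known. Alternatives were other windows, starts and peak filters and other group memberships.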

Additional observations from a re-analysis of the deposited data

How the results depend on the processing

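The alternatives were windows of 1 and 5 kb, any transcript start, the peak midpoint, a peak over the start, a minimum −log10 q of 10 for H3K4me3, the widest 50% of ATAC-seq peaks, and Foxj1, Foxn1 and Foxn4 counted as lineage members. After seeing the data, members sharing the window with another coding start were left out, and so were Foxd3, Foxh1 and Foxm1 of the lineage group. No count moved by over 1.5 times. Members with H3K4me3 ranged from 36 (peak over the start) to 40, with ATAC-seq from 31 (peak over the start) to 41 (5 kb), and with both from 30 to 40. The median fold ranged from 33.0 to 35.2 in the ubiquitous group and from 20.3 to 21.3 in the lineage group. Over all protein-coding genes the counts ran from 12975 to 14740 for H3K4me3 and from 13223 to 17223 for ATAC-seq. For single members 25 of 492 presence calls changed, at 12 genes. Foxj3 and Foxq1 lost H3K4me3 in the 1 kb window, Foxn1 and Foxs1 lost it at the minimum −log10 q, and Foxl1 lost ATAC-seq among the widest peaks. Foxi1, Foxj3 and Foxn1 gained an ATAC-seq peak in the 5 kb window. No paired analysis was possible because the replicates share a single peak list per assay, and for the same reason no replicate could be left out.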

Other observations

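Members on chromosome X were outside the family as defined above, and their values follow. Foxo4, the X-linked FOXO gene, had an H3K4me3 peak over its start with a fold of 29.2, and 1 ATAC-seq peak. Foxp3, the gene of regulatory T cells, had a fold of 24.4 and 3 ATAC-seq peaks. Foxr2 had a fold of 4.02 and 1 ATAC-seq peak. The CpG observed/expected ratio of the 1 kb around the start was 0.72 at Foxo4, 0.65 at Foxp3 and 0.13 at Foxr2.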
